A study of Caenorhabditis elegans with 2 samples.

Results

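DVE-1 binding was described at 7 genes that encode transcription factors of longevity and stress resistance in Caenorhabditis elegans: daf-16, skn-1, hsf-1, hlh-30, pqm-1, pha-4 and hif-1. The genes were taken from a list, among 19973 annotated protein-coding genes, and were chosen with earlier results of these data known. For each gene, every peak summit was collected from 5000 bp upstream of its most distal annotated 5′ end to its 3′ end, a stretch called its locus here. The 7 loci spanned 114.6 kb together and held 41 of the 7262 summits of the optimal peak list. The authors derived that list by the irreproducible discovery rate, and it equals the 7262 strongest regions of the pooled replicates. Chromatin came from whole hermaphrodites at the L4 larval stage, of unknown age, without any treatment in the labels. The strain was OP398, with the genotype unc-119(tm4063) III and the transgene wgIs398, which expresses DVE-1 with GFP and FLAG fused to its C-terminus. DNA fragments made by sonication were precipitated with an antibody against GFP in 2 biological replicates, and a single control alignment served both. The labels do not say which promoter drives the transgene or whether the untagged dve-1 gene is intact. All samples form 1 group, so binding in whole animals is described and no condition is compared with another. The lists hold no read counts, and the depth of each library is therefore unknown.

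DVE-1 belongs to the SATB-like homeodomain proteins and acts when animals respond to unfolded proteins in their mitochondria. The 7 factors act in the neighbouring branches of stress physiology. DAF-16, the FoxO factor, is held out of the nucleus by insulin-like signalling, and PQM-1, a zinc-finger protein, moves in and out of the nucleus opposite to it. SKN-1, related to mammalian NRF factors, drives detoxification genes. HSF-1 drives chaperone genes after heat, HLH-30 (related to mammalian TFEB) drives autophagy and lysosomal genes, and HIF-1 is the factor stabilised at low oxygen. PHA-4, a FoxA protein, specifies the pharynx and is needed for the longer life of animals under dietary restriction. Their genes are themselves regulated, and several have alternative promoters that produce different isoforms.

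The sequences at the strongest peaks of hif-1, pqm-1, hlh-30, skn-1 and pha-4 are printed to show what lay under these summits, and those of daf-16 and hsf-1 are not printed. For skn-1 the strongest peak inside a promoter window of the gene is printed beside its strongest peak. Each run covers the summit base and 100 bases on each side and is written 5′ to 3′ on the strand of the gene, from the RefSeq genome sequence of the WBcel235 (ce11) build. Capitals mark matches to 8 motifs, searched on both strands. They are GTAAACA (the site of DAF-16) and also CTTATCA (the site of PQM-1 and of GATA factors). CACGTG is the E-box bound by HLH-30, and ACGTG, which is contained in it, is the core of the hypoxia response element. TTCNNGAA is part of the heat shock element. TGTCAT and also TATCAT carry the core bound by SKN-1. GAGACGCAG is a sequence that was added because it was frequent in the optimal list.
hif-1 peak, chrV:20778309-20778509, plus strand, rank 103: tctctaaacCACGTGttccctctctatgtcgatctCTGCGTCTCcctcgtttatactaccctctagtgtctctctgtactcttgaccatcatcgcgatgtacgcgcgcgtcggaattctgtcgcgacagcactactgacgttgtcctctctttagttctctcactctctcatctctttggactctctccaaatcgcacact
pqm-1 peak, chrII:11151068-11151268, minus strand, rank 487: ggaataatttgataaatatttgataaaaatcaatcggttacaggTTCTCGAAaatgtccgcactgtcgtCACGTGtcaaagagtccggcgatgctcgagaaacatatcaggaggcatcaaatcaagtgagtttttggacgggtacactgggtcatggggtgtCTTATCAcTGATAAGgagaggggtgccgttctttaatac
hlh-30 peak, chrIV:4024240-4024440, minus strand, rank 751: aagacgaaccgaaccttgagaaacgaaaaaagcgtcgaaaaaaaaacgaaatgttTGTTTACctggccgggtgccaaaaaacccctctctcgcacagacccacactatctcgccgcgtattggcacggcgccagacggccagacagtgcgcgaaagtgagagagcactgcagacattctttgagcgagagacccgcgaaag
skn-1 peak, chrIV:5659541-5659741, minus strand, rank 1207: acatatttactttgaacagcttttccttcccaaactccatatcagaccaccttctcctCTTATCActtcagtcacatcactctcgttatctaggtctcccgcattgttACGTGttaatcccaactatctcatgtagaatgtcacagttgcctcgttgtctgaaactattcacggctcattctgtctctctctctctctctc
skn-1 peak, chrIV:5656075-5656275, minus strand, rank 1350: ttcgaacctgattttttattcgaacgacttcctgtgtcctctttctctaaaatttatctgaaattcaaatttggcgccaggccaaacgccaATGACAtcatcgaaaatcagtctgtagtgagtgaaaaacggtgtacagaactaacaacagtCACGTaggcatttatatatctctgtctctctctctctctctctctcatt
pha-4 peak, chrV:20752743-20752943, plus strand, rank 1561: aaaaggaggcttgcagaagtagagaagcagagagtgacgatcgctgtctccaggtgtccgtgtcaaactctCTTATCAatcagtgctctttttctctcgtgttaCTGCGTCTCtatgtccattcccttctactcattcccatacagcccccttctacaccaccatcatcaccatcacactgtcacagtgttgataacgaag

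The hif-1 sequence held CACGTG 91 bases before the summit and GAGACGCAG, on the opposite strand, 65 bases before it. In the pqm-1 sequence CACGTG lay 31 bases before the summit, and CTTATCA occurred on both strands, 62 and 70 bases after it. This run also held TTCTCGAA, a match to TTCNNGAA. The pqm-1 run contains 82 coding bases, whereas the other printed runs contain none. In the hlh-30 sequence GTAAACA was found on the opposite strand, 45 bases before the summit. The sequence of the strongest skn-1 peak held CTTATCA 42 bases before and ACGTG 8 bases after the summit, and that of the promoter peak held TGTCAT 9 bases before and ACGTG 52 bases after its summit, both on the opposite strand. CTTATCA and GAGACGCAG lay 29 bases before and 4 bases after the pha-4 summit, the second on the opposite strand.

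Over all 41 summits, the motifs occurred at shares not far from those of the whole list. CTTATCA was found at 11 of the 41 (26.8%), beside 22.5% of all optimal summits and 4.72% of flanking windows 1000 bp away. GTAAACA occurred at 4 (9.76%, 5.74% of all summits, 2.70% of flanks), and 3 of these 4 lay in hlh-30. CACGTG also occurred at 4 (9.76%, 9.17% of all, 3.91% of flanks), 1 each in daf-16, hlh-30, pqm-1 and hif-1. ACGTG was found at 10 (24.4%), beside 1960 of the 7262 optimal summits and 17.6% of flanks. TGTCAT was found at 7 (17.1%, 13.6% of all, 10.4% of flanks) and TATCAT at 5 (12.2%, 19.2% of all, 12.7% of flanks). TTCNNGAA was found at 2 (4.88%), beside 8.48% of all summits and 13.3% of flanks. GAGACGCAG was found at 4 (9.76%), beside 9.09% of all summits and 1.04% of flanks. It was picked for its frequency in this list, so its higher share there than in flanks is not an independent result. The median GC content was 42.3% at the member summits, 38.8% at all optimal summits and 35.8% in the flanks, and the part of GC content in these shares was not tested. A match describes letters, and binding of the named factors was not measured here.

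Every one of the 7 loci held at least 1 optimal summit. Among all protein-coding genes 38.4% had a summit in a locus built the same way, and among the 9044 genes whose locus was between 7.205 and 31.21 kb long, like those of the 7 genes, 45.5% did. At least 5 summits were found at 5 of them (hlh-30, daf-16, skn-1, hif-1 and pqm-1), beside 0.881% of all protein-coding genes and 1.48% of those with a locus of similar length. At least 8 were found at hlh-30, daf-16 and skn-1, beside 0.135% of all genes. The loci of the 7 genes held a mean of 5.86 summits and a median of 6, against a mean of 0.651 and a median of 0 over all genes. Over the 9044 genes of that length band the mean was 0.818 and the median 0. Length was not matched gene by gene. Per 10 kb this came to 3.58 summits, compared with 0.793 over all protein-coding loci and 0.724 over the genome. The 7 genes were chosen with earlier results of these data known, the thresholds of 5 and 8 after the counts were seen, and no test was run.

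**Figure D1:**
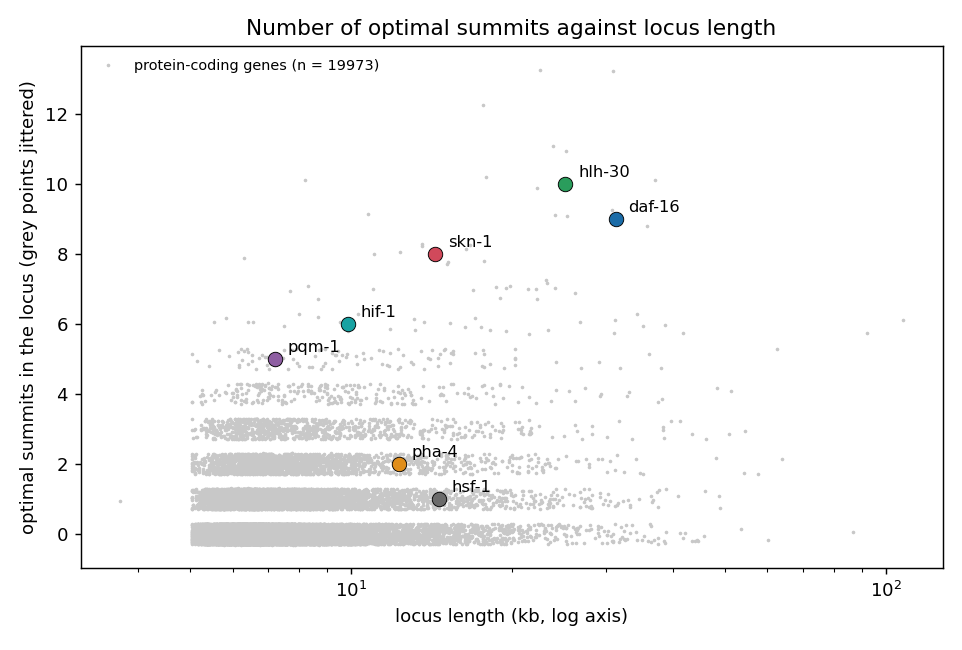
Number of optimal summits in each locus (vertical axis) against the length of the locus in kb (horizontal log axis), for all 19973 protein-coding genes as grey points with vertical jitter and the 7 genes as coloured points. The points of hlh-30, daf-16 and skn-1 lie at 10, 9 and 8 summits, above most genes of similar length, and those of pha-4 and hsf-1 lie at 2 and 1.

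By number of summits hlh-30 was 6th of all protein-coding genes, with 10, daf-16 was 11th with 9 and skn-1 was 17th with 8. Tied genes share the best place. The locus of hlh-30 was among 10 genes with 10 or more, and the highest number at any gene was 13. Longer loci had more room, and per kb the order was different. The compact locus of pqm-1 had 6.94 summits per 10 kb and stood 54th, that of hif-1 had 6.09 and stood 100th, and skn-1 had 5.58 (166th). The density was 3.98 per 10 kb at hlh-30 (674th), 2.88 at daf-16 (1728th), 1.63 at pha-4 (3875th) and 0.686 at hsf-1 (7387th). That of hsf-1 was below the 0.793 of all protein-coding loci.

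The signals of the 41 peaks lay near the middle of the list. Their median signal, as the authors' peak caller gave it for the pooled replicates, was 67.3, beside 64.66 over all optimal peaks, and 22 of them (53.7%) stood among the strongest 3631 peaks. They ranged from 35.44 to 257.9, in a list that ran from 34.73 to 918. Because the scale of the signal differs between lists, replicate values were divided by that replicate's median at the optimal peaks, and the result is called relative signal. The median relative signal was 1.07 at the 38 of the 41 peaks found in both replicates (summits within 100 bp). It was 0.998 at the 6828 optimal peaks found in both.

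Most of these peaks were present in both replicates. The optimal list was itself derived from both, so this agreement is not an independent result. For 38 of the 41 (92.7%) each replicate had, among its 30000 regions, one with a summit within 100 bp, as for 94.0% of all optimal peaks. For 31 (75.6%) both regions were among the 7262 strongest of their replicate, beside 71.6% of all. Relative signal was higher in replicate 1 at 21 of the 38 and lower at the others. Of the 3 exceptions, the skn-1 summit at rank 5169 and the hif-1 summit at rank 4732 belong to regions that overlap another optimal region, and replicate 1 had only 1 region for each such pair. The hlh-30 summit at rank 7126 missed the limit in replicate 2 with a distance of 102 bp.

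**Figure D2:**
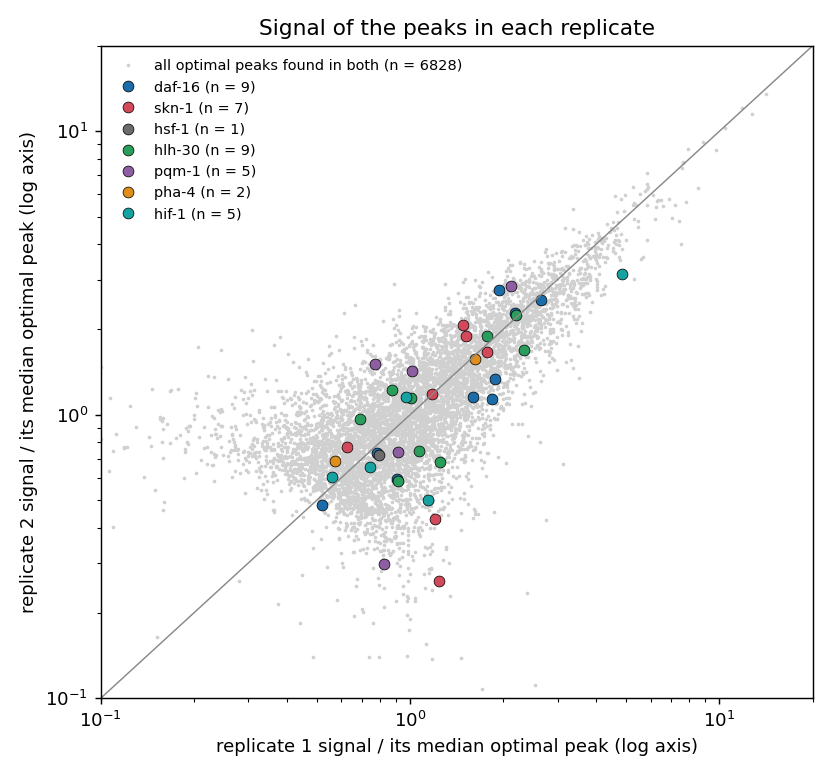
Relative signal (signal divided by the replicate's median at optimal peaks) in replicate 1 (horizontal log axis) and replicate 2 (vertical log axis), for 6828 optimal peaks found in both as grey points and the 38 such peaks of the 7 genes in colour; the line marks equal values. The coloured points lie within the grey cloud, with the strongest hif-1 peak at 4.85 and 3.14 farthest to the upper right.

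The summits lay mostly inside the genes, which also make up most of the length of the loci. An intron held 21 of the 41 (51.2%), the upstream stretch 15 (36.6%), an untranslated exon 3 and a coding exon 2. Of all optimal summits 24.7% lay in introns, 10.9% in exons and 64.4% between genes. The locus rule takes the whole gene and only 5000 bp before it. These shares are therefore not comparable with those of the 41, and they show no preference for gene bodies. Promoter windows covered 1000 bp before and 200 bp after each annotated 5′ end. Such a window of the own gene held 11 of the 41 summits (26.8%) and a window of any protein-coding gene held 12 (29.3%), beside 55.0% of all optimal summits. The locus rule bears on this comparison too, because the 41 were collected over whole loci, of which the windows are a part. The lower share does not show that binding avoided promoters. A summit fell in a window of 6 of the 7 genes, beside 21.7% of all protein-coding genes, and hsf-1 was the exception. Genes with several promoters have more windows. With only the window of the most distal 5′ end of each gene, 4 of the 7 had a summit, beside 20.1% of all genes. Counted by promoter, with 5′ ends within 50 bp merged, 17 of 27 promoters (63.0%) had a summit in their window, beside 20.1% of all promoters. These 17 were the single promoter of pqm-1, 7 of 7 in hlh-30, 3 of 4 in skn-1, 2 of 3 in pha-4, 3 of 7 in daf-16 and 1 of 3 in hif-1. Overlapping windows share summits, so the 17 promoters are not independent.

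**Figure D3:**
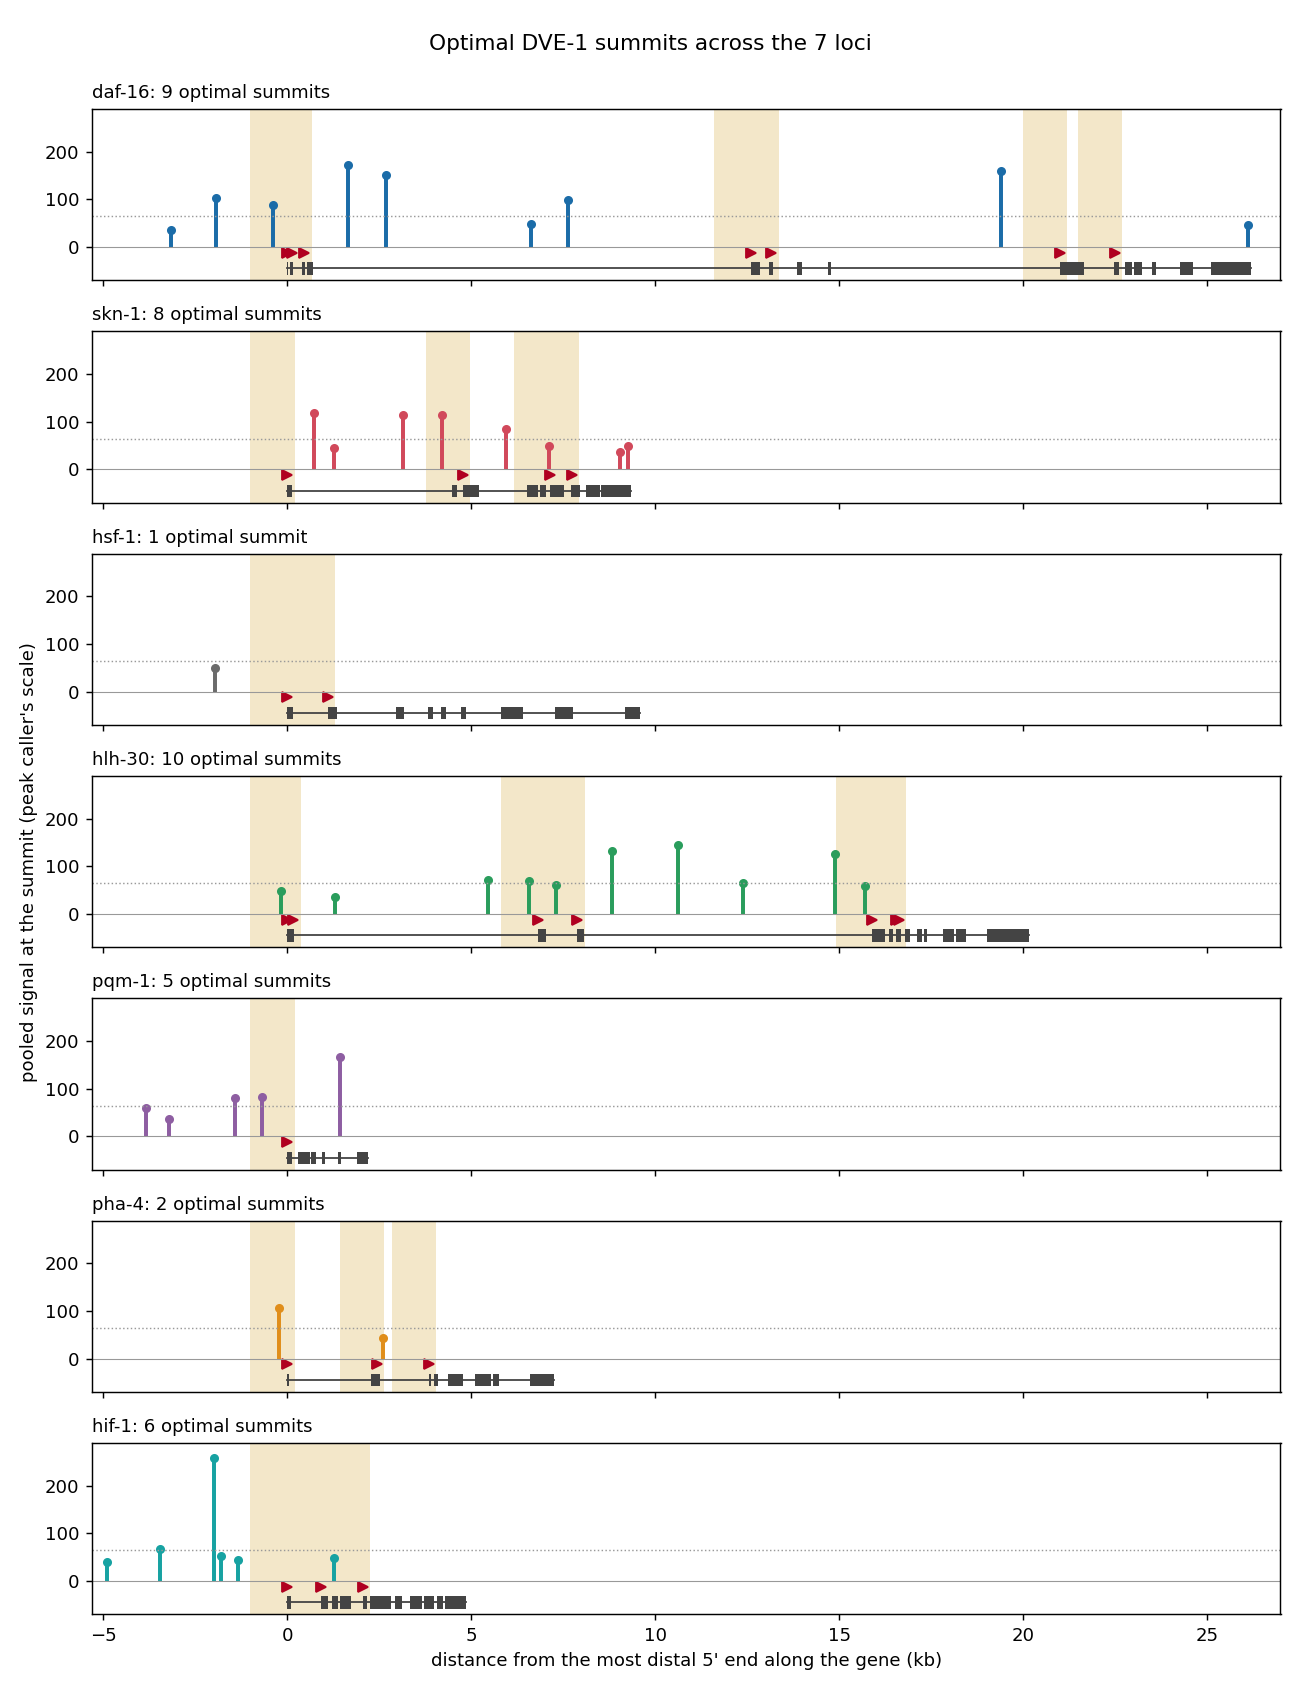
Optimal summits (stems) across the 7 loci, with the pooled signal on the peak caller's scale (vertical axis) against the distance in kb from the most distal 5′ end along the direction of transcription (horizontal axis). Arrowheads mark annotated 5′ ends, shaded bands their promoter windows, dark boxes exons and the dotted line the median optimal signal of 64.66. The tallest stem, at hif-1, stands 1998 bp before the gene and outside its shaded window, and the tallest stems of daf-16, hlh-30 and skn-1 stand inside introns.

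The locus of daf-16, on chromosome I at 10750498 to 10776703 on the plus strand (ce11), held 9 summits in 31.21 kb, and each of them was found in both replicates. The strongest, in the long intron 1666 bp after the most distal 5′ end, had a signal of 77.76 in replicate 1, 95.67 in replicate 2 and 172.3 in the pooled list, where it ranked 424. Its relative signal was 2.59 ± 0.0779 (SD, n = 2). The next was at 159.5 (rank 550), 1604 bp upstream of the 5′ end of isoform a, and its relative signal was 2.35 ± 0.581. Another intronic summit, 1010 bp beyond the strongest, ranked 659. These 3 peaks stood among the 1000 strongest of the list, and all 3 were outside the promoter windows.

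A single daf-16 summit, 391 bp upstream of the most distal 5′ end, fell in a promoter window. It had a signal of 46.97 in replicate 1 and 43.60 in replicate 2, and ranked 2236 in the pooled list with 87.97. It lay in the windows of the first 3 promoters, which begin isoforms h, f, i, d and k. The promoters of isoforms b and c and of l and m, in the middle of the gene, had no summit in their windows, nor had those of isoforms a and e. The other summits were 2 upstream ones, 1928 and 3147 bp before the gene at ranks 1645 and 6944. There were also 2 in the intron, 1010 bp from each other, at ranks 5180 and 1821, and 1 in the last, untranslated exon at rank 5623. Noncoding RNA genes are annotated next to several of them. The 5′ ends of H36N01.1, H36N01.3 and R13H8.4 were 47, 38 and 82 bp from the summits at ranks 2236, 659 and 5180.

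The gene of PQM-1, on chromosome II at 11150391 to 11152595 on the minus strand, has 1 annotated promoter and held 5 summits in 7.205 kb. The strongest was in a coding exon, 1427 bp after the 5′ end. Its signal was 62.58 in replicate 1 and 107.2 in replicate 2, and it ranked 487 in the pooled list with 166.1. The relative signal was 2.48 ± 0.504 (SD, n = 2), and it was higher in replicate 2. A summit 695 bp upstream, in the promoter window, ranked 2435 with a relative signal of 1.22 ± 0.287. The other 3 were 1409, 3201 and 3829 bp upstream, at ranks 2550, 6969 and 4132. At the summit 3201 bp upstream the replicates differed, with a relative signal of 0.821 in replicate 1 and 0.298 in replicate 2. No other annotated 5′ end lay within 1000 bp of any of the 5 summits.

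The locus of skn-1, on chromosome IV at 5651039 to 5660384 on the minus strand, held 8 summits in 14.35 kb. Its 3 strongest peaks had similar signals. The first, in the intron 743 bp after the 5′ end of isoform a, had 43.50 in replicate 1, 78.53 in replicate 2 and 118.8 in the pooled list (rank 1207). Its relative signal was 1.78 ± 0.425 (SD, n = 2). The other 2 were an intronic peak at rank 1329, 77 bp from the 5′ end of the noncoding RNA gene T19E7.26, and a peak at rank 1350, 570 bp upstream of the 5′ end of isoform c. Their relative signals were 1.72 ± 0.0717 and 1.71 ± 0.267, so that the 3 differed by less than the spread between replicates.

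The promoters of skn-1 isoforms b, c and d had a summit in their windows and that of isoform a did not. The summit before isoform b was 30 bp upstream of its 5′ end and ranked 5074, with a relative signal of 1.20 in replicate 1 and 0.429 in replicate 2. It also served the window of isoform d, and it lay 690 bp upstream of clec-178, a gene for a C-type lectin domain protein nested in skn-1. A peak at rank 2340 was inside clec-178 and had a relative signal of 1.18 ± 0.0051. Before isoform a, the pooled list had a region 463 bp upstream with a signal of 33.78. Its rank of 7438 was just past the 7262 peaks of the optimal list. At the other end of the gene 2 overlapping regions, with summits 205 bp apart in the last, untranslated exon, ranked 5169 and 6791. Replicate 1 had 1 region there, with a relative signal of 1.24, and the weaker of the 2 had 0.259 in replicate 2. The remaining skn-1 summit, 1286 bp after the 5′ end of isoform a, ranked 5574.

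At hsf-1, on chromosome I at 11953507 to 11963085 on the minus strand, binding was sparse. Its locus of 14.58 kb held 1 optimal summit, 1965 bp upstream of the gene, and 3 pooled regions in all. The signal of that peak was 23.32 in replicate 1, 27.25 in replicate 2 and 49.0 in the pooled list, at rank 5137. Its relative signal was 0.757 ± 0.0503 (SD, n = 2). Both promoters of the gene lacked a summit in their windows. The nearest pooled region to the gene, 636 bp upstream, ranked 22886 with a signal of 8.269, and replicate 2 had no region within 1000 bp of it.

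The locus of hlh-30, on chromosome IV at 4014793 to 4034951 on the minus strand, held 10 summits in 25.16 kb, and all but the first were in introns. Its strongest peak, 10611 bp after the most distal 5′ end, had a signal of 64.76 in replicate 1, 84.62 in replicate 2 and 144.1 in the pooled list (rank 751). The relative signal was 2.22 ± 0.0279 (SD, n = 2), with little spread between replicates. A second peak, 1786 bp before it, ranked 936 with a relative signal of 2.02 ± 0.455. The third ranked 1059 with 1.83 ± 0.0847 and lay 57 bp from the 5′ end of the noncoding RNA gene W02C12.4. It was 1003 bp upstream of the promoter of isoforms a, f and g, just outside the window.

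The summits inside promoter windows of hlh-30 were weaker than these 3. The summit 179 bp upstream of the gene ranked 5132, the one 252 bp before the promoter of isoforms b and c ranked 3219, the one 577 bp before that of isoforms d and e ranked 3986, and the one 211 bp before that of isoforms a, f and g ranked 4072. Their relative signals were 0.750 ± 0.235, 1.08 ± 0.0961, 0.826 ± 0.196 and 0.907 ± 0.225. With windows that overlap, these 4 summits covered all 7 promoters of the gene. The other intronic summits ranked 3156, 3620 and 7126.

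At pha-4, on chromosome V at 20753052 to 20760317 on the plus strand, both optimal summits fell in promoter windows. The stronger was 209 bp upstream of the most distal 5′ end, that of isoform a, and 57 bp from the 5′ end of the noncoding RNA gene F38A6.6. Its signal was 47.72 in replicate 1, 59.45 in replicate 2 and 105.7 in the pooled list (rank 1561), with a relative signal of 1.598 ± 0.0338 (SD, n = 2). The other was 166 bp after the 5′ end of isoform b and ranked 5768, with 0.630 ± 0.0805. The promoter of isoform c had no summit in its window.

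The gene of HIF-1, also on chromosome V, at 20780407 to 20785260 on the plus strand, carried the strongest of the 41 peaks. Its summit was 1998 bp upstream of the gene, and the signal was 142.6 in replicate 1 (rank 47 of 30000 regions), 118.7 in replicate 2 (rank 209) and 257.9 in the pooled list (rank 103). The relative signal was 4.85 in replicate 1 and 3.14 in replicate 2, a mean of 3.995 ± 1.207 (SD, n = 2). An overlapping region with a summit 199 bp closer to the gene ranked 4732. Other upstream summits lay 1327, 3465 and 4889 bp before the gene, at ranks 5660, 3424 and 6440. The last of these was 149 bp upstream of F38A6.4, a protein-coding gene that is read in the opposite direction, so that it lay in the promoter window of that gene and not of hif-1. A single summit, in a coding exon and 797 bp upstream of the 5′ end of isoform c, fell in a window of hif-1. It was weak, with a signal of 21.77 in replicate 1 and 24.74 in replicate 2, rank 5293 and a relative signal of 0.698 ± 0.0601.

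**Figure D4:**
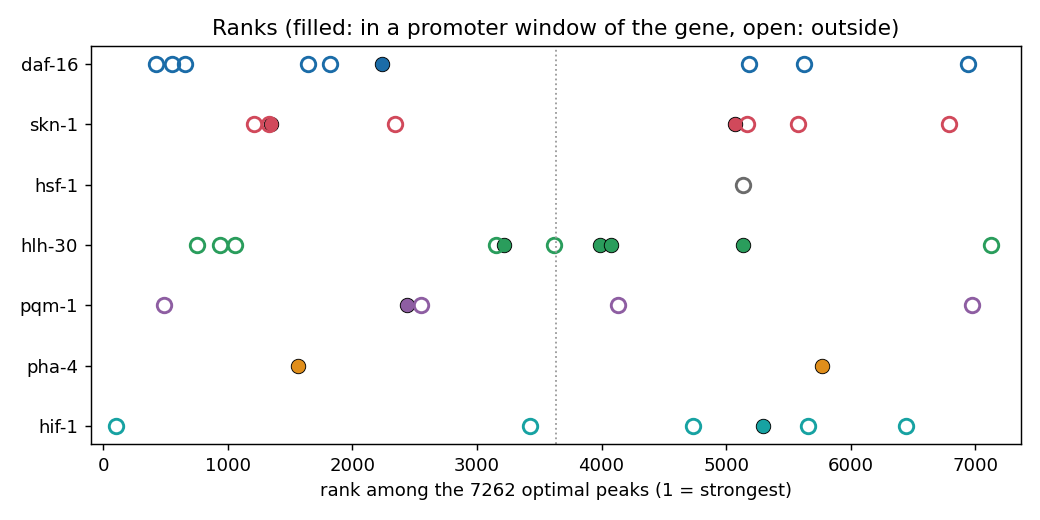
Rank of each of the 41 summits among the 7262 optimal peaks (horizontal axis, 1 is the strongest) for each gene (rows), with filled points for summits in a promoter window of the gene, open points for the others and a dotted line at the middle of the list. The points left of rank 1000 are all open, and belong to hif-1, daf-16, pqm-1 and hlh-30.

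Noncoding RNA genes were annotated close to several of these summits. Within 100 bp of the 5′ end of such a gene lay 6 of the 41 (14.6%), beside 6.27% of all optimal summits. They were 3 in daf-16 and 1 each in skn-1, hlh-30 and pha-4. Whether these transcripts bear on the peaks was not tested, and the limit of 100 bp was chosen after the distances were seen.

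The regulators and partners of the 7 factors, and genes that they are known from other work to activate or repress, were then counted. Of 56 regulator and partner genes 27 (48.2%) had an optimal summit in a promoter window, and of 61 target genes 31 (50.8%) did, beside 21.7% of all protein-coding genes. Both lists were put together from general knowledge of the field and with earlier results of these data known, so their shares are not independent of these data. The lists are not complete and hold well-studied genes, and no test was run on them.

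**Figure D5:**
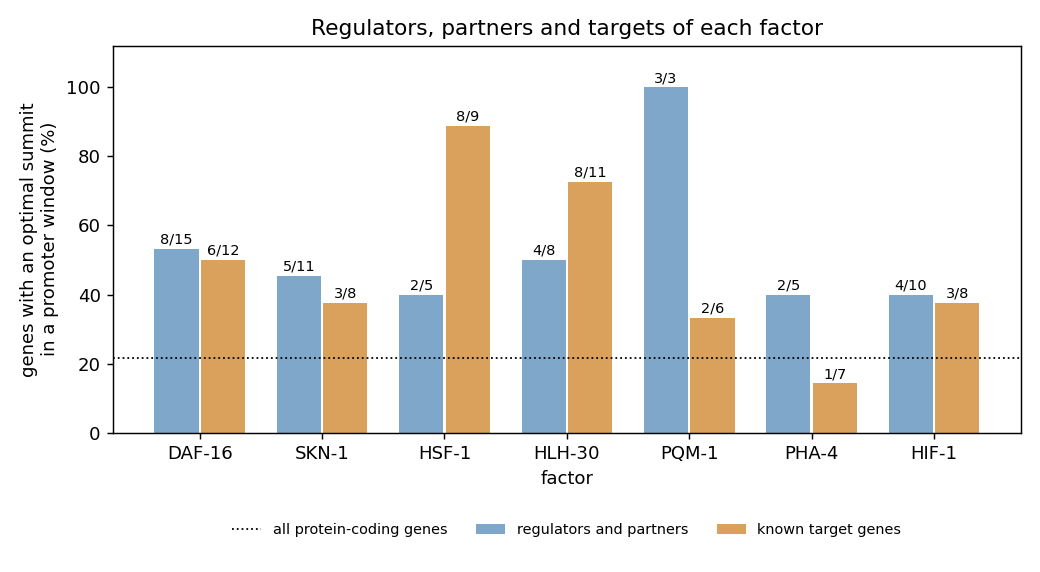
Share of genes with an optimal summit in a promoter window (vertical axis, percent) for the regulators and partners (blue bars) and the known targets (orange bars) of each factor, with counts above the bars and a dotted line at the 21.7% of all protein-coding genes. Most bars stand above the line, highest at the 3 of 3 PQM-1 partners and the 8 of 9 HSF-1 targets, and the bar of the PHA-4 targets, 1 of 7, stands below it.

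In the insulin-like branch 8 of 15 regulators of DAF-16 had a promoter summit. The strongest were at akt-2, a kinase that phosphorylates DAF-16 (rank 686, relative signal 2.22 ± 0.125; SD, n = 2 here and for the other genes of the lists), and at the genes of both 14-3-3 proteins, par-5 (rank 717, 2.09 ± 0.23) and ftt-2 (rank 1639). The summits of ftt-2 in the replicates were not both within 100 bp, and the par-5 summit was shared with M117.3. The genes of the receptor daf-2 and the kinases age-1 and pdk-1 had none. Among DAF-16 targets 6 of 12 had a summit. The strongest were sip-1, a small heat shock protein gene (rank 895, 1.93 ± 0.558, shared with sly-1), icl-1 of the glyoxylate cycle (rank 1099, 1.88 ± 0.431, shared with srh-2) and the insulin-like gene ins-7 (rank 1748, 1.45 ± 0.274, shared with ZK1251.3). The superoxide dismutase gene sod-3, often used as a readout of DAF-16, had no summit.

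All 3 partners of PQM-1 in the list had a promoter summit: elt-2, the intestinal GATA factor, at rank 740 with a relative signal of 2.17 ± 0.412, ceh-60 at rank 1076 with 1.83 ± 0.512, and unc-62 at rank 6162 with 0.553 ± 0.239. Among its targets 2 of 6 had one, the yolk protein gene vit-2 (rank 2509, 1.35 ± 0.317) and dod-22 (rank 5706, not found in both replicates).

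For SKN-1 5 of 11 regulators and 3 of 8 targets had a summit. The strongest was 89 bp upstream of wdr-23, whose product directs the breakdown of SKN-1, at rank 409 with a relative signal of 2.63 ± 0.0128. The next were mxl-3 (rank 2521, 1.18 ± 0.537) and xrep-4 (rank 2887, 1.16 ± 0.46). The product of mxl-3 is known as a helix-loop-helix factor that opposes HLH-30 at lysosomal lipase genes, and with it counted there 4 of 10 regulators of SKN-1 and 5 of 9 of HLH-30 had a summit. Of the kinase cascade upstream of SKN-1, nsy-1 had a promoter summit (rank 4474, 0.853 ± 0.305, shared with F59A6.13), and sek-1 and pmk-1 had none. Of the glutathione transferase targets, gst-7 ranked 1212 (1.78 ± 0.113) and gst-4, a common reporter of SKN-1, ranked 6618 (0.621 ± 0.0728). The gst-4 summit was also in the windows of dhs-12 and gst-2, and the target nit-1 ranked 6292 with a summit shared with metl-6.

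While hsf-1 itself had no promoter summit, 8 of 9 HSF-1 targets did. The strongest of them were hsp-110 (rank 131, relative signal 3.62 ± 0.662, shared with rpn-3), the J-domain gene dnj-13 (rank 171, 3.38 ± 0.186, shared with F54D5.9) and hsp-1 of the constitutive Hsp70 (rank 180, 3.40 ± 0.898). F44E5.4 and F44E5.5, which are near-identical copies and share 1 summit between them, ranked 767. Whether reads at that summit can be placed uniquely was not tested. The small heat shock genes hsp-16.2 and hsp-16.41 also shared 1 summit, at rank 2471, so the 8 genes stand for 6 peaks. Among the 5 partners, 2 had a summit. That of hsp-90, a chaperone known in mammals to hold the heat shock factor inactive, ranked 80 with 4.11 ± 0.326 and was shared with C47E8.4, and that of sir-2.1, a deacetylase, ranked 3072 with 1.05 ± 0.0728.

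Of the HLH-30 targets 8 of 11 had a promoter summit. The strongest stood at both genes for Atg8-like proteins of autophagosomes, lgg-2 (rank 210, relative signal 3.20 ± 0.0803) and lgg-1 (rank 234, 3.09 ± 0.164), and at the lysosomal lipase gene lipl-2 (rank 603, 2.28 ± 0.215). Of its 8 regulators and partners 4 had one, among which mdl-1, of the Mad-like branch of the Myc and Mondo network, was the strongest (rank 929, 1.87 ± 0.466). The others named were mml-1 (rank 4718, 0.860 ± 0.212) and daf-15, which encodes Raptor of the TOR complex (rank 5220, 0.730 ± 0.0887).

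The strongest promoter peak in either list was that of wwp-1, a ubiquitin ligase gene needed with pha-4 for longevity under dietary restriction. It lay 270 bp upstream of wwp-1 and ranked 39, with a relative signal of 4.80 in replicate 1 and 5.77 in replicate 2. The other PHA-4 partner with a summit was smk-1 (rank 5954, 0.741 ± 0.213), which is also a DAF-16 partner. Of 7 PHA-4 targets 1 had one, sod-4 (rank 3293, 0.955 ± 0.155). For HIF-1 4 of 10 regulators had a summit. These included egl-9, the prolyl hydroxylase that marks HIF-1 for breakdown (rank 1347, 1.70 ± 0.345), rhy-1, which acts through egl-9 (rank 1656, 1.54 ± 0.0403), and aha-1, the dimer partner of HIF-1 (rank 2763, 1.19 ± 0.749). The aha-1 peak, shared with C25A1.15, was weak in replicate 1 and stronger in replicate 2. Among its targets 3 of 8 had one. They were nhr-57 (rank 1086), with a relative signal of 0.321 in replicate 1 and 1.87 in replicate 2 that came from regions not within 100 bp in both, cysl-2 (rank 2658, 1.17 ± 0.214) and nhr-46 (rank 3450, 0.980 ± 0.304).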

How the data were processed

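Peak lists without header, in narrowPeak layout, were used on the ce11 build. Per the text deposited beside the lists, the relaxed lists of 30000 regions (each replicate and the pooled replicates) derive from each alignment and 1 shared control, and the optimal list of 7262 peaks derives from them by the irreproducible discovery rate. No source used here names the aligner, the peak caller or the threshold. The deposited signal of a region is the authors' peak caller's own value against the control, and an error of the control would enter both replicates. The deposited −log10 q value was 4.27 for every optimal peak and ranked nothing. The optimal list was found to be the 7262 strongest pooled regions, so ranks follow the pooled signal.

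Positions were compared with Ensembl release 115 on WBcel235. Regions of a replicate were matched by summits at most 100 bp away. Python 3.11.15 was used with numpy 2.4.6, pandas 2.3.3, scipy 1.17.1 and matplotlib 3.10.9, and counting steps were checked on simulated data. The 7 genes and the lists were chosen with earlier results of these data known. Named were the 7 genes, genes whose 5′ end is nearest to or within 1000 bp of a summit, and up to 3 genes per factor and list with the strongest promoter summit. Other list genes (daf-2, age-1, pdk-1, sod-3, nsy-1, pmk-1, sek-1, F44E5.4, F44E5.5, hsp-16.2, hsp-16.41) were named after their values were seen, as were the distance to noncoding RNA genes, the counts of at least 5 and 8 summits and GAGACGCAG. The list genes hsf-2 and ctsa-1 did not match the annotation. The lists on the other build (ce10) were not used. Alternatives covered the peak set, the locus, the window, the distance and the scale of the signal.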

Additional observations from a re-analysis of the deposited data

How the results depend on the processing

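With 1 group and 2 replicates no test was run. Of 41 alternative values for the main counts, 36 stayed within 1.5 times the count or within the spread between replicates. With the strongest 3631 optimal peaks, the summits in the 7 loci fell from 41 to 22. Regulators and partners with a promoter summit fell from 27 to 16 (28.6%, beside 12.4% of all genes). Lower counts follow from removing peaks at this setting. Per 10 kb, summits fell from 3.577 to 1.919 in the 7 loci and from 0.7925 to 0.4055 over all protein-coding loci. The median relative signal of 1.07, over the 38 peaks found in both replicates, was 1.15 without replicate 1 and 1.16 without replicate 2. For the same peaks it was 1.09 in the pooled list. These values lay beyond an SD of the replicate medians of 0.00813. Genes with a summit in a promoter window numbered 4 with windows of 500 bp upstream (daf-16, skn-1, hlh-30 and pha-4), beside 17.6% of all protein-coding genes. With the most distal 5′ end alone they numbered 4 (daf-16, hlh-30, pqm-1 and pha-4), beside 20.1%. All 7 had one with windows of 2000 bp (26.6% of all genes) or by the nearest 5′ end (21.8%). For single genes 10 of 63 values moved. They were skn-1 at 5 summits without replicate 1, pha-4 at 1 without replicate 2, pqm-1 at 3 with 2000 bp upstream, the relative signal of the strongest pha-4 peak at 1.635 in the pooled list (1.598 as the mean of replicates), and, with the strongest 3631 peaks, skn-1 at 4, hsf-1 at 0, hlh-30 at 6, pqm-1 at 3, pha-4 at 1 and hif-1 at 2. With overlapping regions counted once, an alternative chosen after seeing the data, 39 summits remained of 41. Counting mxl-3 with HLH-30, also chosen later, left the regulators and partners with a summit at 27. No paired analysis was possible because there is 1 group. Without read counts, a region missing from a list cannot be told from one too shallow to be called.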

Other observations

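Other transcription factor genes, taken by symbol, had lower mean numbers of optimal summits per locus than the 5.86 of the 7 genes above. Their loci were also shorter, with medians from 6.5 kb (hlh-) to 7.8 kb (zip-), beside 7.205 to 31.21 kb at the 7 genes. The means were not adjusted for length. The nuclear hormone receptor genes (nhr-) had a mean of 1.03 summits in their loci, and 93 of 269 (34.6%) had a promoter summit. The helix-loop-helix genes (hlh-), which include hlh-30 with its 10 summits, had a mean of 1.04, and 3 of 25 had a promoter summit. Of the basic leucine zipper genes (zip-) 7 of 12 (58.3%) had one, with a mean of 2.0 summits. Of the homeobox genes (ceh-) 10 of 63 (15.9%) had one, with a mean of 0.429. The share over all protein-coding genes was 21.7%.

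The 10 genes with 10 or more summits in their locus included hlh-30. The others were ppfr-1 and vhp-1 with 13 each, mnk-1 with 12, T28B11.1 and din-1 with 11, and egl-27, mak-1, pkg-2 and tir-1 with 10. The locus of mak-1 was 8.18 kb long, the shortest of the 10.

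Regions that were among the strongest 7262 of 1 replicate but lay over 100 bp from any optimal summit numbered 6 in replicate 1 and 3 in replicate 2 at the 7 loci. They were in daf-16, skn-1, pqm-1 and hif-1, with relative signals from 0.590 to 0.708. One of them in replicate 1 lay 464 bp upstream of the gene at hif-1, with a relative signal of 0.647.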
